A study of Mus musculus with 7 samples.

Results

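Heme clearance and iron handling were followed through 10 genes of injured mouse spinal cord: *Hmox1*, *Cd163*, *Hp*, *Hpx*, *Tfrc*, *Slc11a2*, *Fth1*, *Ftl1*, *Slc40a1* and *Cp*. They were chosen by name for their known roles, and all 10 were found among the 21965 genes of the count table and among the 15743 that passed the filter on low counts. RNASeq was made from a 5 mm piece of spinal cord around the epicenter of a moderate T9 contusion (50 kdyn, 400 to 600 µm displacement) at dpi 3, with 1 library per mouse. One group was 3 mice labelled Bmal1-/- (2 females, 1 male), which carry a germline deletion of *Arntl*, the gene of the circadian transcription factor BMAL1, in every cell (B6.129-Arntltm1Bra/J on C57BL/6, C57Bl/6J in the study's methods). The other was 4 C57BL/6 WT mice (2 females, 2 males; C57Bl/6J in the methods), age-matched and mostly bought rather than bred with the mutants, with 1 littermate among them. All mice received the contusion and no uninjured mice were in the series, so the data compare genotypes after injury and do not show what the injury did. Blood was flushed out with buffer before the tissue was taken.

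After hemorrhage, free hemoglobin is bound by haptoglobin and taken up by macrophages through CD163, while free heme is bound by hemopexin. Heme oxygenase 1 opens the heme ring and frees iron, which the ferritin heavy and light chains store. Cells take up iron through the transferrin receptor and DMT1 and let it out through ferroportin, helped by the oxidase ceruloplasmin, and iron regulatory proteins set several of these mRNAs by the iron state of the cell.

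Libraries held 38529644 to 44096737 counts. *Arntl*, the targeted gene, was counted at 24.1, 24.2 and 22.5 CPM (counts scaled by library size and TMM factors) in the libraries labelled Bmal1-/- and at 14.7, 15.3, 11.9 and 13.4 CPM in WT. The count over the whole gene therefore goes against the label. It includes any exons the allele still transcribes, and an antisense gene overlaps *Arntl* by 33 exonic bases; what the count holds was not tested. Clock genes controlled by BMAL1 separated the genotypes in all 7 libraries. *Nr1d1*, which BMAL1 activates, ran from 5.31 to 7.28 CPM in libraries labelled Bmal1-/- and from 29.2 to 36.8 CPM in WT (log2 fold change -2.51, adjusted p = 0.000456, edgeR). *Dbp*, another gene it activates, ran from 7.80 to 8.83 CPM against 25.3 to 39.3 CPM (-1.85, adjusted p = 0.00328, edgeR), and *Cry1* from 40.1 to 44.8 CPM against 12.9 to 15.4 CPM (1.58, adjusted p = 0.000456, edgeR). Every direction given is that of the libraries labelled Bmal1-/-. WT replicate 3 stood apart from the other WT libraries, at 51.4 on the first principal component of log2 CPM where the other 3 lay at 10.2 to 19.5, so values are also given without it where they rest on it. Markers of neurons, astrocytes and oligodendrocytes were present in every library, while no liver marker exceeded 1.15 CPM.

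None of the 10 genes passed edgeR's quasi-likelihood test at an adjusted p under 0.05, where 1.57% of all genes tested passed (0.915% lower and 0.654% higher), and their adjusted p ran from 0.0926 to 0.723. Of the 10 genes, 5 had an unadjusted p under 0.05, 3 of them lower and 2 higher, against 20.9% of all genes tested (12.2% lower and 8.64% higher). DESeq2 called 4 of them, 3 lower and 1 higher, where it called 9.13% of all genes it tested (5.63% lower and 3.5% higher), and limma-voom called 0, where it called 1.31% of all genes. The genotypes did not overlap for 5 genes, of which *Hmox1*, *Cd163* and *Slc40a1* were lower in the libraries labelled Bmal1-/- and *Tfrc* and *Slc11a2* were higher, where 26.9% of all genes tested did not overlap (13.5% lower and 13.4% higher). The median log2 fold change of the 10 genes was -0.37, beside -0.0060 for all genes tested, and it was -0.20 without WT replicate 3.

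**Figure D1:**
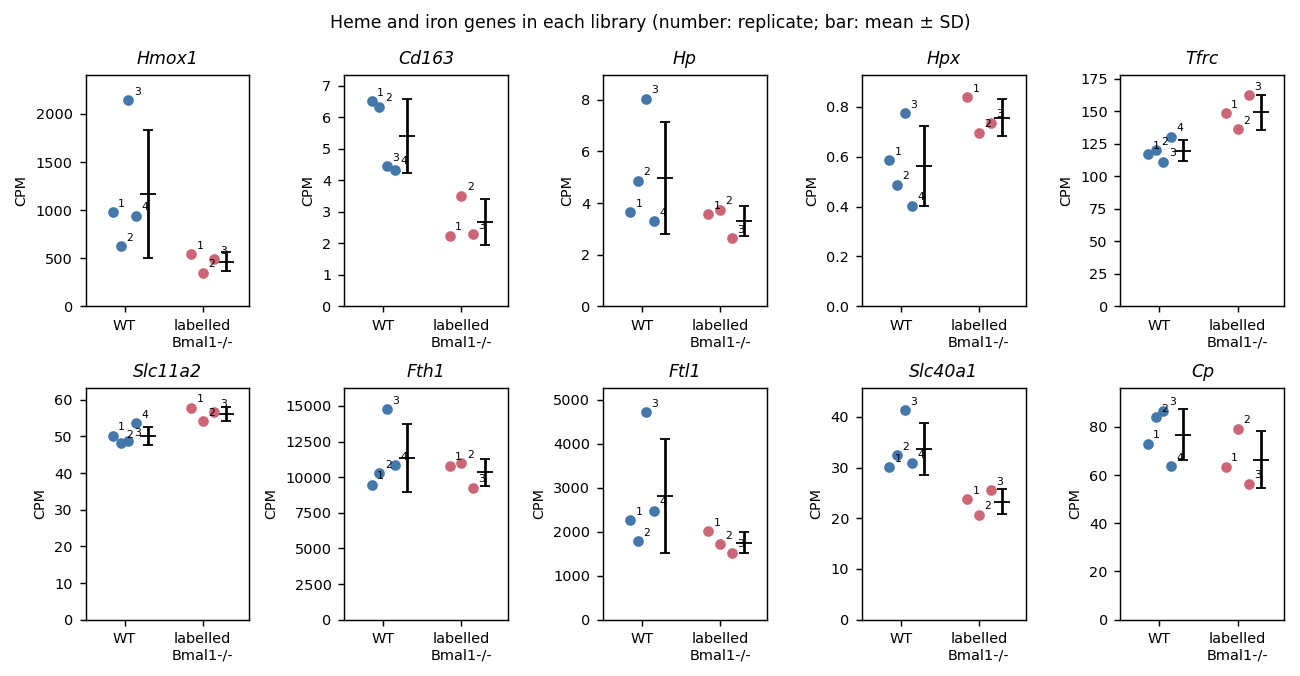
CPM of the 10 genes in each library, on linear axes from 0, for WT (blue, 4 libraries) and libraries labelled Bmal1-/- (red, 3 libraries); numbers give the replicate, and black bars the mean ± SD. *Hmox1* reached 2142 CPM in WT replicate 3, and all 3 libraries labelled Bmal1-/- lay below every WT library for *Hmox1*, *Cd163* and *Slc40a1*.

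**Figure D2:**
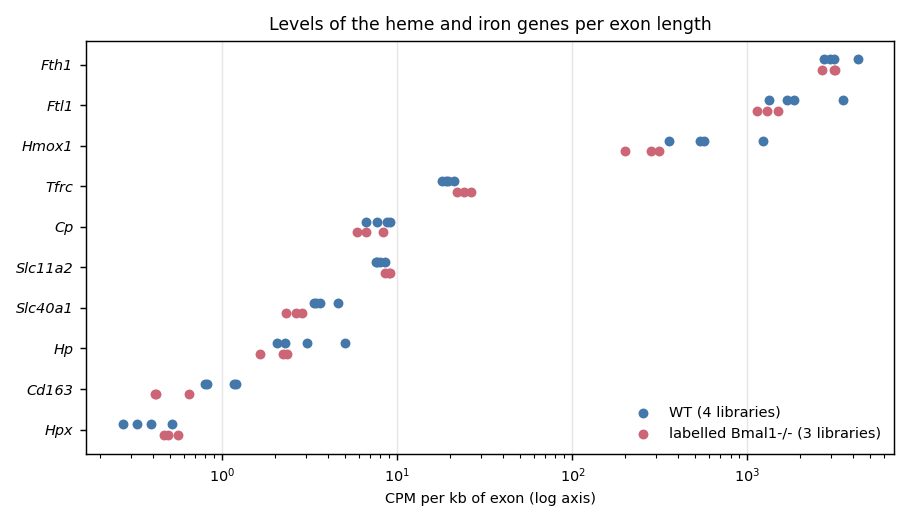
CPM per kb of exon of the 10 genes on a log axis, with 1 point per library (blue WT, red labelled Bmal1-/-) and the genes ordered by their WT mean. *Fth1* and *Ftl1* lead at 3272 and 2099 in WT and *Hpx* is lowest at 0.376.

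Levels of different genes were compared as CPM per kb of exon. In WT the order of the means was *Fth1* (3272), *Ftl1* (2099), *Hmox1* (669.9), *Tfrc* (19.4), *Cp* (8.03), *Slc11a2* (7.89), *Slc40a1* (3.74), *Hp* (3.09), *Cd163* (0.989) and *Hpx* (0.376). Ferritin mRNAs and *Hmox1* thus made up the upper end, far above the receptors and transporters. Among neighbours in this order the WT ranges overlapped for *Fth1* and *Ftl1*, for *Cp* and *Slc11a2* and for *Slc40a1* and *Hp*, although *Fth1* was above *Ftl1* in 4 of 4 libraries. In the libraries labelled Bmal1-/- the order differed at 2 places, with *Slc11a2* (8.85) above *Cp* (6.94), whose ranges did not overlap, and *Hpx* (0.505) above *Cd163* (0.490), whose ranges did. The last of these depends on the length used, since with the length of 1 principal transcript *Cd163* was above *Hpx* at 0.607. No other place in either order changed with that length. The overlaps of ranges were read with exon length alone, and some differ with the length of 1 principal transcript. These are *Fth1* with *Ftl1* in WT and *Slc40a1* with *Hp* in both genotypes, which overlap with exon length and then separate. In the libraries labelled Bmal1-/-, *Slc11a2* and *Cp* then overlap.

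The windows around the transcription start of *Cd163* and *Tfrc*, the genes with the smallest p among those that were lower and those that were higher, are shown because BMAL1 binds the E-box CACGTG and no BMAL1 binding was measured here. They are RefSeq sequences of GRCm38.p6, 250 bases before the start and 30 after it, 5′ to 3′ on the gene's strand, which is the plus strand for both. Capitals mark ACGTG, the core of the hypoxia response element, found on either strand and also contained in CACGTG.
Cd163, chr6:124304401-124304680: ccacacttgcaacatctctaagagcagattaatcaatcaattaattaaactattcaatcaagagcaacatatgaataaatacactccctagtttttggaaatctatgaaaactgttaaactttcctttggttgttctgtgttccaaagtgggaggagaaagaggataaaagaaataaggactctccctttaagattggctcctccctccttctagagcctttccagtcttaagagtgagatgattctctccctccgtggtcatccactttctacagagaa
Tfrc, chr16:32608646-32608925: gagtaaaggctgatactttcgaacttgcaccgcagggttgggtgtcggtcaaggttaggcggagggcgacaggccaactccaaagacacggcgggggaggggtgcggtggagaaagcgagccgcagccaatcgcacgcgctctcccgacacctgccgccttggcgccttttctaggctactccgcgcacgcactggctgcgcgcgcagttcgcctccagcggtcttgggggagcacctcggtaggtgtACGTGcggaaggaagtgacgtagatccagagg
Windows were at hand for 6 of the 10 genes (*Cd163*, *Hpx*, *Tfrc*, *Fth1*, *Ftl1* and *Cp*), with 9 windows in all. CACGTG was found in 0 of the 9, where 6.79% of all 32851 windows hold it. ACGTG was found in 2, where 18.5% of all windows hold it. Both are windows of *Tfrc* that overlap and hold the same single match. TGACNNNGC, a form of the antioxidant response element, was found in 1, of *Hpx*, where 11.5% of all windows hold it.

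Among the scavenging genes, *Cd163* was lower in the libraries labelled Bmal1-/-, while haptoglobin and hemopexin overlapped between the genotypes. *Cd163* (ENSMUSG00000008845, chromosome 6 of GRCm38 from 124304656 to 124330527), the macrophage receptor for hemoglobin bound to haptoglobin, was counted at 2.24, 3.50 and 2.28 CPM in libraries labelled Bmal1-/- and at 6.50, 6.32, 4.44 and 4.34 CPM in WT. All 3 libraries labelled Bmal1-/- lay below all 4 of WT. Mean levels were 2.67 ± 0.719 (SD, n = 3) against 5.40 ± 1.17 (SD, n = 4) CPM, a log2 fold change of -1.01 (standard error, SE, 0.24, 95% interval -1.57 to -0.45, Benjamini-Hochberg adjusted p = 0.0926 from the edgeR quasi-likelihood test). With DESeq2 its adjusted p was 0.00248. The 7 markers of perivascular and border macrophages, cells known for CD163, were all lower too, with 0 called by edgeR and 1 (*Mrc1*) by DESeq2, with sums of 115 to 129 CPM against 133.6 to 263.3 CPM. In a bulk sample fewer cells of a type and less RNA per cell cannot be told apart, and the part of these cells in the result was not tested. *Cd163* rests on few reads, with 88 to 151 counts per library labelled Bmal1-/- and 172 to 255 in WT.

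*Hp* (ENSMUSG00000031722, chromosome 8), which encodes the hemoglobin binding plasma protein haptoglobin, was counted at 3.56, 3.74 and 2.64 CPM against 3.65, 4.86, 8.04 and 3.30 CPM in WT. The ranges overlapped, and WT replicate 3 was the highest. Its log2 fold change was -0.58 (SE 0.33, adjusted p = 0.324, edgeR), and -0.25 without WT replicate 3. *Hpx* (ENSMUSG00000030895), which encodes the heme binding protein hemopexin, was counted at 0.839, 0.696 and 0.736 CPM against 0.587, 0.488, 0.774 and 0.403 CPM in WT. Its counts were 16 to 33 per library, and its log2 fold change was 0.42 (SE 0.25, adjusted p = 0.345, edgeR), opposite in sign to *Hp* and *Cd163*. *Hpx* lies on chromosome 7, as *Arntl* does, 7.61 Mb from it. Both binding proteins are made mainly in the liver, none of whose markers exceeded 1.15 CPM here.

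Breakdown of heme was followed through its inducible enzyme. *Hmox1* (ENSMUSG00000005413, chromosome 8 from 75093621 to 75100589), which opens the heme ring, was counted at 544, 352 and 489 CPM in libraries labelled Bmal1-/- and at 982, 625, 2142 and 941 CPM in WT. The genotypes did not overlap, though the WT libraries differed among themselves by more than the gap between the groups. Mean levels were 462 ± 99.0 (SD, n = 3) against 1173 ± 666 (SD, n = 4) CPM, a log2 fold change of -1.34 (SE 0.42, 95% interval -2.32 to -0.37, adjusted p = 0.157, edgeR). This was the largest of the 10 log2 fold changes in size with all libraries, but without WT replicate 3 it was -0.88 and *Cd163* exceeded it at -1.09, as it did without replicate 2 of the libraries labelled Bmal1-/- (-1.25 against -1.18). In DESeq2 its adjusted p was 0.0122. The 6 red cell markers measured were also lower without overlap, 1 of them called by edgeR (*Hbb-bt*) and all 6 by DESeq2, with a summed level of 26.5 to 61.1 CPM in libraries labelled Bmal1-/- and 147.9 to 456.1 CPM in WT. Their part in the result for *Hmox1* was not tested.

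The steps around *Hmox1* did not pass the test. *Hmox2*, the constitutive heme oxygenase, had a log2 fold change of 0.017, and the biliverdin reductases *Blvra* and *Blvrb* had -0.0070 and -0.32. The ratio of *Hmox1* to *Hmox2* CPM within a library was 6.59, 4.03 and 5.64 in the libraries labelled Bmal1-/- and 11.7, 7.52, 25.2 and 10.9 in WT, without overlap. *Hmox2* itself ran from 82.5 to 87.3 CPM against 83.1 to 86.0 CPM, so the ratio restates the values of *Hmox1*. It was not planned and has no test.

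Both iron importers among the 10 genes were higher without overlap in libraries labelled Bmal1-/-, and neither passed edgeR's test. *Tfrc* (ENSMUSG00000022797, chromosome 16 from 32608920 to 32632794), the receptor for iron-loaded transferrin, was counted at 149, 136 and 163 CPM against 117, 120, 111 and 131 CPM in WT. The lowest library labelled Bmal1-/- was above the highest of WT. Mean levels were 149.2 ± 13.2 (SD, n = 3) against 119.7 ± 8.04 (SD, n = 4) CPM, a log2 fold change of 0.32 (SE 0.083, 95% interval 0.12 to 0.51, adjusted p = 0.115, edgeR). In DESeq2 its adjusted p was 0.0155.

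*Slc11a2* (ENSMUSG00000023030, chromosome 15), which encodes the iron importer DMT1, was counted at 57.8, 54.2 and 56.6 CPM against 50.2, 48.1, 48.7 and 53.6 CPM. The genotypes did not overlap, but the lowest library labelled Bmal1-/- and the highest of WT lay side by side. Its log2 fold change was 0.16 (SE 0.060, adjusted p = 0.194, edgeR). It shares 402 exonic bases with *Gm5475* on the opposite strand, and the strand setting of the counting was not given in the sources used here, so its count is uncertain.

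The ferritin mRNAs were the most abundant of the 10 genes and did not separate the genotypes. *Fth1* (ENSMUSG00000024661, chromosome 19), the ferritin heavy chain, was counted at 10800, 11000 and 9271 CPM against 9478, 10300, 14780 and 10830 CPM. *Ftl1* (ENSMUSG00000050708, chromosome 7), the light chain, was counted at 2007, 1722 and 1524 CPM against 2263, 1785, 4722 and 2479 CPM. WT replicate 3 was the highest library for both, and the remaining WT libraries overlapped those labelled Bmal1-/-.

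The log2 fold change of *Fth1* was -0.13 (SE 0.22, adjusted p = 0.723, edgeR) and turned to 0.021 without WT replicate 3. That of *Ftl1* was -0.68 (SE 0.33, adjusted p = 0.276, edgeR) and was -0.31 without that library. The ratio of *Fth1* to *Ftl1* CPM was 5.38, 6.39 and 6.08 in the libraries labelled Bmal1-/- and 4.19, 5.77, 3.13 and 4.37 in WT, and the ranges overlapped. *Fth1* has 2 named pseudogenes and *Ftl1* 1 in the annotation, so reads shared with near-identical copies make both counts uncertain.

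The mRNA of the iron exporter was lower without overlap, though it did not pass edgeR's test with all libraries. *Slc40a1* (ENSMUSG00000025993, chromosome 1), which encodes ferroportin, was counted at 23.7, 20.7 and 25.5 CPM against 30.1, 32.4, 41.3 and 30.9 CPM. Every library labelled Bmal1-/- lay below every WT library. Mean levels were 23.3 ± 2.44 (SD, n = 3) against 33.7 ± 5.18 (SD, n = 4) CPM, a log2 fold change of -0.53 (SE 0.13, 95% interval -0.84 to -0.22, adjusted p = 0.103, edgeR). Without WT replicate 3 it was -0.42 and passed, with an adjusted p of 0.0426 in the same test, when 4.66% of all genes tested passed. In DESeq2 its adjusted p was 0.0121.

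*Cp* (ENSMUSG00000003617, chromosome 3), which encodes the oxidase ceruloplasmin, was counted at 63.5, 79.3 and 56.5 CPM against 73.1, 83.9, 86.7 and 63.5 CPM. The ranges overlapped, and its log2 fold change was -0.21 (SE 0.15, adjusted p = 0.402, edgeR). It shares 108 exonic bases with *Hps3* on the opposite strand. The ratio of *Tfrc* to *Slc40a1* CPM, the importer over the exporter, was 6.27, 6.59 and 6.38 in the libraries labelled Bmal1-/- and 3.88, 3.71, 2.70 and 4.23 in WT. The 3 ratios of the libraries labelled Bmal1-/- lay close together and above all 4 of WT. Since *Tfrc* alone was higher and *Slc40a1* alone lower without overlap, their ratio had to separate the genotypes and only restates both genes. This pair was chosen after its values were seen, so the ratio has no test.

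**Figure D3:**
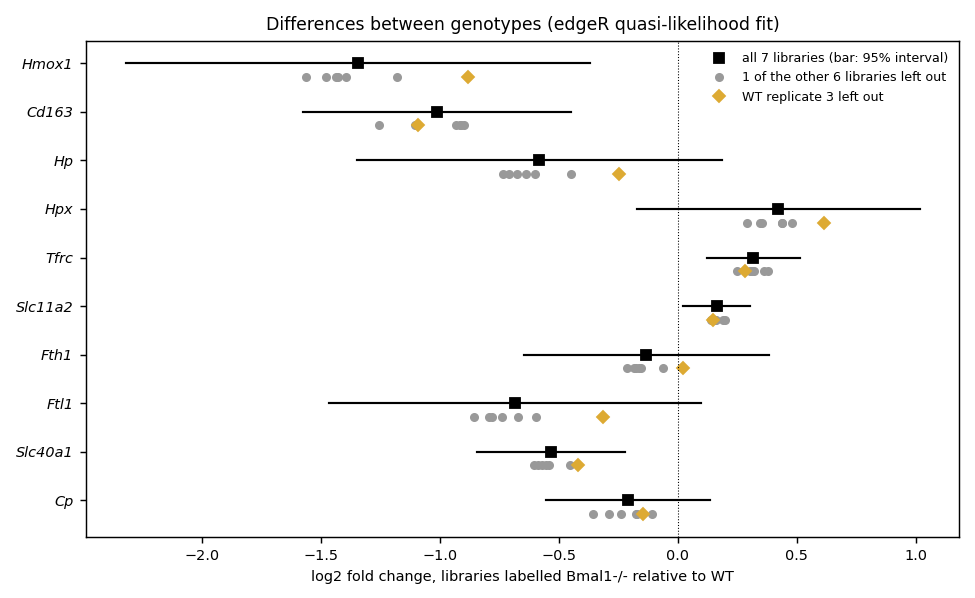
Log2 fold change of the 10 genes in the libraries labelled Bmal1-/- relative to WT, with the 95% interval (black, all 7 libraries), the fits that leave out 1 of the other 6 libraries (grey) and the fit without WT replicate 3 (yellow). The yellow points of *Hmox1*, *Hp*, *Fth1* and *Ftl1* lie nearer to 0 than any grey point or across it, at -0.88, -0.25, 0.021 and -0.31.

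Of 55 other genes of heme and iron handling, 51 could be tested. *Ftmt*, *Hamp*, *Tmprss6* and *Hephl1* were too low, and *Ftmt* had no count in any library. Under edgeR 2 of the 51 fell and 0 rose at an adjusted p under 0.05, where 1.57% of all genes tested passed (0.915% lower and 0.654% higher). An unadjusted p under 0.05 was found for 13, where 20.9% of all genes tested had one. DESeq2 called 4 lower and 2 higher, where it called 9.13% of all genes it tested (5.63% lower and 3.5% higher). The median log2 fold change of the 51 was -0.021, beside -0.0060 for all genes tested. The genotypes did not overlap for 12 lower and 3 higher, where 13.5% of all genes tested were lower and 13.4% higher without overlap.

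Both called genes belong to the STEAP family, some of whose members are metal reductases that turn ferric into ferrous iron. *Steap3*, which reduces iron in endosomes after transferrin uptake, was counted at 18.9, 23.5 and 17.2 CPM against 40.4, 38.0, 42.1 and 32.4 CPM in WT. It fell by 0.94 on the log2 scale (SE 0.14, adjusted p = 0.0215, edgeR), and the genotypes did not overlap. *Steap1* was counted at 0.712, 0.604 and 0.508 CPM against 2.09, 1.83, 2.10 and 1.11 CPM. It fell by 1.55 (SE 0.28, adjusted p = 0.0466, edgeR). The calls were lost in 4 of 7 fits that left out 1 library for *Steap3*, without replicates 1 and 3 among libraries labelled Bmal1-/- and WT replicates 1 and 2, where its log2 fold change was -0.95 to -0.85. For *Steap1* they were lost in 5 of 7, the same 4 and the fit without replicate 2 of the libraries labelled Bmal1-/-, at -1.67 to -1.44, and it was also lost in limma-voom, without the filter on low counts and with sex as a covariate, at adjusted p = 0.0505 to 0.0669.

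The other family members went both ways. *Steap4* had a log2 fold change of -1.18 (SE 0.36, adjusted p = 0.155, edgeR) and *Steap2* 0.43 (SE 0.20, adjusted p = 0.268, edgeR). The zinc and iron importers *Slc39a14* and *Slc39a8* also differed in sign, at 0.49 (adjusted p = 0.0798, edgeR) and -0.47 (adjusted p = 0.182, edgeR). *Slc39a14* was counted at 148.5, 168.1 and 133.2 CPM against 103.3, 93.6, 120.6 and 108.9 CPM, without overlap.

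Heme synthesis and mitochondrial iron genes held 15 tested members, of which 9 had a negative and 6 a positive log2 fold change. None passed in edgeR, where 1.57% of all genes tested did. An unadjusted p under 0.05 was found for 4, beside 20.9% of all genes tested. DESeq2 called *Alas2* (adjusted p = 2.85e-06) and *Iscu* (adjusted p = 0.0400), where it called 9.13% of all genes it tested. *Alas2*, the heme synthesis enzyme of red cell precursors, was counted at 1.98, 1.39 and 0.888 CPM against 6.50, 5.66, 14.3 and 4.99 CPM, a log2 fold change of -2.46 (SE 0.47, adjusted p = 0.0556, edgeR). It moved with the red cell markers, whose part in its result was not tested. *Alas1*, its counterpart in other cells, had 0.041 (adjusted p = 0.700, edgeR). *Iscu*, a scaffold for iron-sulfur clusters, had 0.26 (adjusted p = 0.152, edgeR), and *Hjv*, hemojuvelin of the hepcidin pathway, had -0.99 (adjusted p = 0.203, edgeR) at 0.255 to 1.07 CPM. The iron regulatory protein genes *Aco1* and *Ireb2* had -0.16 and 0.040, and the heme sensor *Bach1* had -0.063.

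**Figure D4:**
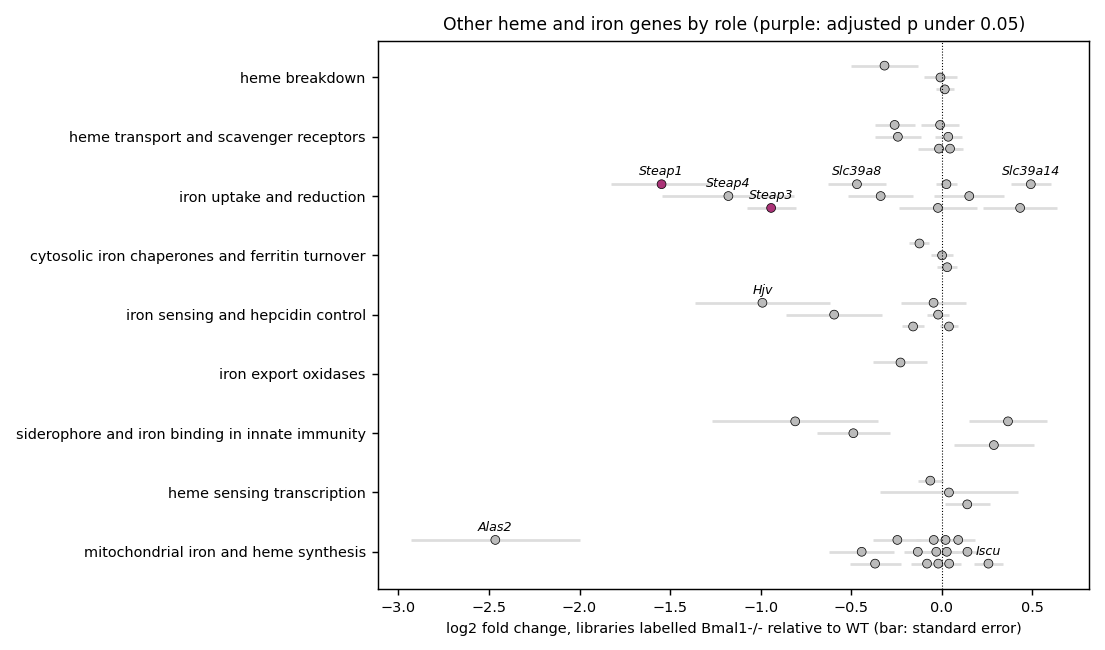
Log2 fold change (libraries labelled Bmal1-/- relative to WT) with its SE for the 51 other heme and iron genes tested, grouped by role, with 1 point per gene. The 2 purple points, *Steap3* and *Steap1*, have an adjusted p under 0.05 in edgeR, both are lower and both belong to iron uptake and reduction.

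Markers of other cell types were read in the same libraries. The 6 fibroblast markers (5 lower, 1 higher) summed to 485.6, 2330 and 407.2 CPM against 1636, 1926, 1338 and 1216 CPM in WT. The 6 choroid plexus markers summed to 6.379, 24.12 and 6.015 CPM against 60.32, 44.8, 13.88 and 17.42 CPM. Both overlapped, with 0 called by edgeR and 1 (*Lum*) by DESeq2. Replicate 2 labelled Bmal1-/- and WT replicates 1 and 2 were highest of their genotype in both sums and for *Cd163*. This relation was not tested. The sums of the 9 macrophage markers overlapped, with sums of 7283 to 8463 CPM against 5678 to 12830 CPM, and so did those of the 8 neutrophil markers (32.7 to 62.9 CPM against 38.1 to 128 CPM), although 8 of 8 had a negative log2 fold change, with a median of -0.70 and 0 called by edgeR or DESeq2, 1 at an unadjusted p under 0.05.

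Endothelial markers were lower too, 7 of 7 with 1 called by edgeR (*Cdh5*) and 3 by DESeq2 (*Cdh5*, *Kdr* and *Tek*), and sums of 297.7 to 353.8 CPM against 365.9 to 665.3 CPM, and so were the 8 markers of dividing cells, at 238 to 321 CPM against 398 to 689 CPM, with 0 called by edgeR and all 8 by DESeq2. Astrocyte and neuron markers were higher in sum, at 16230 to 18690 CPM against 10890 to 15390 CPM and 3643 to 4442 CPM against 1524 to 3578 CPM. Of the 8 astrocyte markers, 6 were higher and 2 lower (*Slc1a3* and *S100b*), with 0 called by edgeR and 1 (*Gfap*) by DESeq2. The 7 neuron markers were all higher, 3 of them without overlap, with 0 called by edgeR or DESeq2. The 6 skeletal muscle markers all fell in edgeR, with sums of 5.39 to 6.57 CPM against 45.7 to 51.1 CPM. Their part in the results for the 10 genes was not tested.

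The genes were also set against the summed marker levels of the same library. These ratios were chosen after the data were seen and have no test. The sums are not weighted, so the most abundant markers set most of them. *Spp1* was the largest part of the macrophage sum, with means of 4902 CPM in libraries labelled Bmal1-/- and 5307 CPM in WT. *F13a1* was the largest part of the perivascular and border macrophage sum, at 70.9 and 87.6 CPM. The ratios therefore do not give a level per cell of a type. *Hmox1* per 1000 CPM of macrophage markers was 64.3, 44.6 and 67.2 in the libraries labelled Bmal1-/- and 143, 110, 167 and 110 in WT, so it was lower without overlap also on this scale. Per 1000 CPM of red cell markers it was 8901, 9056 and 18480 against 6639, 3694, 4697 and 5878, higher without overlap. On that scale each of the 10 genes except *Cd163* was higher without overlap, also *Fth1*, at 176700 to 350300 against 32410 to 67620. The red cell sum they were divided by was itself lower, at 26.5 to 61.1 CPM against 147.9 to 456.1 CPM. Ratios were formed with 9 marker lists, of macrophages, perivascular and border macrophages, microglia, neutrophils, red cells, endothelial cells, dividing cells, astrocytes and oligodendrocytes. The lists of neurons, fibroblasts, choroid plexus, liver and skeletal muscle were not used for ratios. Among the 9 lists *Hmox1* was lower without overlap relative to 6, higher relative to 1 and overlapping relative to 2.

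*Cd163* per 1000 CPM of macrophage markers ran from 0.264 to 0.445 in the libraries labelled Bmal1-/- and from 0.346 to 1.11 in WT, and per 1000 CPM of perivascular and border macrophage markers from 17.3 to 28.5 against 16.9 to 47.3. Both scales overlapped. *Slc40a1* per 1000 CPM of endothelial markers ran from 67.0 to 82.1 against 62.1 to 88.5 and overlapped. *Tfrc* per 1000 CPM of endothelial markers ran from 420.2 to 523.6 against 167.5 to 337.0, and relative to macrophage markers, at 17.3 to 22.3 against 8.69 to 21.2, it overlapped.

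**Figure D5:**
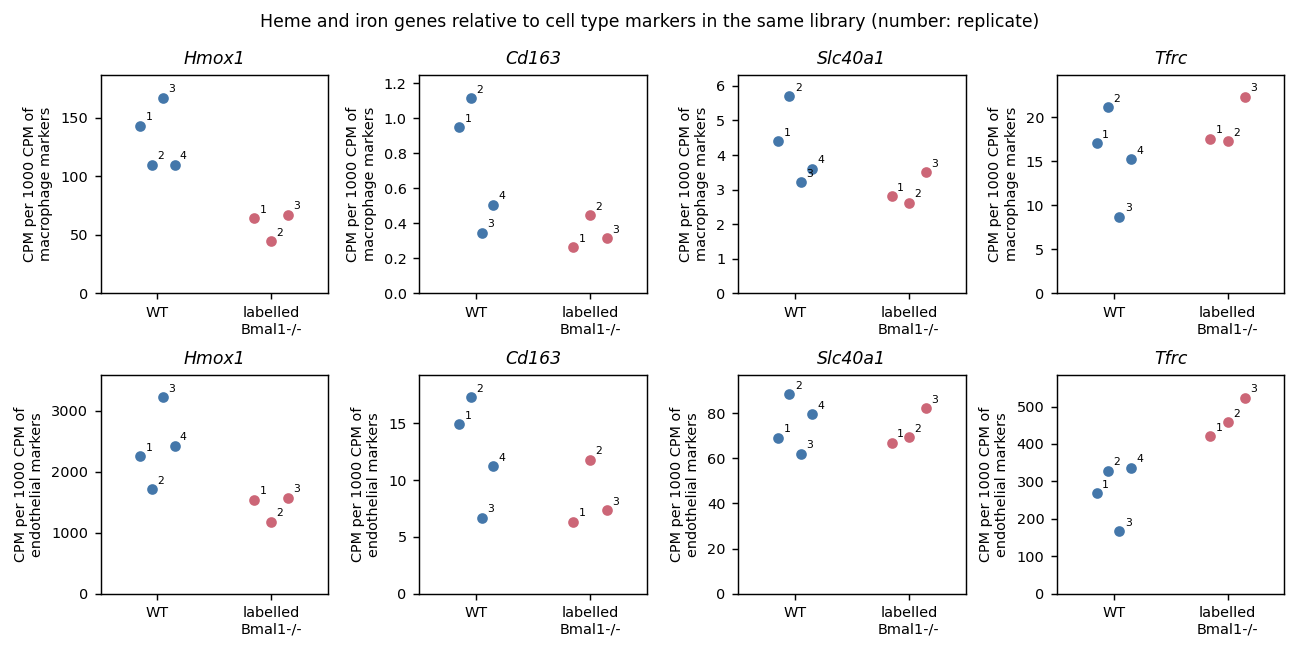
CPM of *Hmox1*, *Cd163*, *Slc40a1* and *Tfrc* per 1000 CPM of summed macrophage markers (upper row) and endothelial markers (lower row) in each library, on linear axes from 0; blue is WT, red is labelled Bmal1-/-, and numbers give the replicate. *Hmox1* separates the genotypes in both rows, *Tfrc* in the lower row alone, and *Cd163* and *Slc40a1* overlap in both. *Spp1* is the largest part of the macrophage sum.

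The genes most like *Cd163*, *Slc40a1* and *Tfrc* across the 7 libraries were ranked by the root mean square difference of centred log2 CPM over 11111 genes with a mean of at least 10 CPM. For *Cd163* they were *Igfbp4* (0.17), *Serpinb1a* (0.17) and *Prelp* (0.17). For *Slc40a1* they were *Rpia* (0.10), *Tek* (0.10), an endothelial receptor of the marker list, and *Spry2* (0.11). For *Tfrc* they were *Haghl* (0.036), *Sema4a* (0.047) and *Tomm20* (0.049).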

How the data were processed

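The authors made stranded poly-A libraries from total RNA, used Tophat2 with GRCm38 for alignment and HTSeq 0.10.0 for counting (FastQC 0.10.1 is also named, per the labels), and deposited raw counts. The annotation release and strand setting are not given in the sources used here, which leaves overlapping genes uncertain. From these counts, edgeR 4.0.16 (R 4.3.3) was run with filterByExpr, TMM, the quasi-likelihood test on genotype and Benjamini-Hochberg adjustment over 15743 genes, at 0.05. The study used DESeq2, which was an alternative here (1.42.0), as were limma-voom (limma 3.58.1), other scalings and filters, sex as a covariate, a replicate block and each library left out. The steps were tested on simulated data. The labels give no extraction or sequencing batch. The 7 libraries are separate mice, with 38529644 to 44096737 counts each. With 1 library per mouse, spread between mice cannot be told apart from spread of dissection or library preparation. The lowest genes are also limited by their counts.

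The 10 genes, the list of 55, the marker lists and the tests were chosen with earlier results of these data known. Named genes were the 10 genes, *Arntl*, the 8 genes of smallest p in the list, the 3 most alike for the 3 of the 10 genes with smallest p, and markers that moved with them; *Steap2*, *Alas1*, *Aco1*, *Ireb2*, *Bach1* the heme breakdown genes and the clock genes *Nr1d1*, *Dbp* and *Cry1*, which the study measured by qPCR, were added after their values were seen. Levels between genes are CPM per kb of exon in GENCODE M21. The length of 1 principal transcript per gene was tried after the data were seen, first by taking the longest and then, after the levels had been looked at, by taking the best supported; the choice changed the length of *Fth1* alone (1494 or 929 bases). Ratios to marker sums were also added then. *Ahsp* was not analysed here. Log2 CPM used a prior count of 2. Plots were drawn with matplotlib 3.10.9.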

Additional observations from a re-analysis of the deposited data

Results flagged for a closer look

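Of 33 values examined in the 4 WT libraries for 1 library far from the rest, 3 met Dixon's criterion at the 95% level, each time with WT replicate 3 as the high library. The gap divided by the range was 0.837 for *Alas2*, at 14.3 CPM against 4.99 to 6.50 CPM in the other WT libraries. It was 0.833 for the summed markers of perivascular and border macrophages, at 263.3 CPM against 133.6 to 155.2 CPM. It was 0.931 for the summed red cell markers, at 456.1 CPM against 147.9 to 169.2 CPM. The criterion is set so that chance alone meets it in about 5% of groups. None of the 10 heme and iron genes met it, although WT replicate 3 was the highest WT library for 7 of them. Without WT replicate 3 the log2 fold change of *Alas2* was -2.01 (adjusted p = 0.0139, edgeR).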

How the results depend on the processing

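The number of the 10 genes called was 0 in edgeR, 4 in DESeq2 and 0 to 1 with each library left out, 1 (*Slc40a1*) without WT replicate 3. Among the 51 other heme and iron genes, 2 were called in edgeR, 6 in DESeq2, 1 in limma-voom, 1 without a filter beyond a total of 1 count, 1 with sex as a covariate and 0 to 4 with each library left out, 4 without WT replicate 3. Over all genes 247 were called in edgeR, 1495 in DESeq2 and 57 (without replicate 1 of the libraries labelled Bmal1-/-) to 730 (without WT replicate 3) with each library left out. The log2 fold change of *Fth1* ran from -0.214 (without WT replicate 1) to 0.021, where it reversed (without WT replicate 3), and the signs of the other 9 genes held in all 15 alternatives. The cause was not tested. Replicate numbers are shared by the labels, but same-numbered libraries did not deviate together (correlations -0.17, 0.18 and -0.29 for replicates 1, 2 and 3). A replicate block called 0 of the 10 genes, 0 of the other 51 and 0 genes in all in edgeR, with 4, 6 and 1590 at an unadjusted p under 0.05. Low counts limit *Hpx*, *Hjv* and *Steap1*.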
